A study of Danio rerio with 6 samples.

Results

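The apolipoprotein genes of the A, B, C and E families were followed in collecting ducts and whole kidney of adult zebrafish. Members were the probe sets whose single gene symbol, in the platform's probe table or in a current gene table, was apoa2, apoea, apoeb or apoa1a or began with apo, then a, b, c or e, then a digit, a or b. This gave 14 probe sets for 12 genes, out of 15617 probe sets and 8793 named genes on the array. The set was assembled because apoa2 was lower in irradiated ducts, so all levels in irradiated against unirradiated ducts are given as a description, without a test. The same holds for apoa2 against whole kidney, since those comparisons use the duct arrays on which it was chosen.

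All fish carried the transgene tg(jam1a:EGFP), by its name a green fluorescent protein under control of the tight junction gene jam1a, and every group came from this line. The 3 groups were collecting ducts from fish given 25 Gy of X-rays, collecting ducts without that treatment, and whole kidney tissue, for which the labels give no dose. Irradiated ducts against whole kidney therefore differ in tissue and in labelled treatment, which cannot be told apart in that comparison. Ducts were picked by their fluorescence under a microscope, and each group had 2 arrays, each made from a pool of 5 fish. The age of the adults and the time between irradiation and dissection are not given in the sources used here.

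Apolipoproteins wrap lipid particles in blood and direct their traffic. ApoB is the structural protein of triglyceride-rich particles, ApoA-I and ApoA-II are proteins of high-density lipoprotein, ApoA-IV and the ApoC proteins move between particles, and ApoE binds receptors of the low-density lipoprotein receptor family. Liver and intestine are their main sources, macrophages of several vertebrates make ApoE, and the proximal tubule of the kidney takes filtered apolipoproteins back up through the receptors megalin and cubilin. The kidney of fish is also their main blood-forming organ. In the gene order of the RefSeq zebrafish table (assembly GRCz12tu), 6 members follow each other without another protein-coding gene between them, in the order apoa4b.2, apoeb, apoc1, apoc4, apoa2, apoc2. The genes apoa4a and apoea are neighbours in a second place.

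Levels are log2 values that the authors made with RMA, which corrects background, brings the arrays to a common distribution and gives each probe set 1 value. Array medians lay between 5.81 and 5.87, and a level under the median is not shown to be above background. Of the 12 genes, 7 stayed under the median on all 6 arrays, 2 (apoc1 and apoeb) were above it on all 6, and apoa2, apoa1a and apoea were above it on some. Tests of ducts against whole kidney used limma across 15502 probe sets with Benjamini-Hochberg adjustment and a threshold of 0.05. Collecting duct and distal tubule markers were past the threshold, all higher, for 7 of 9 measured genes in irradiated ducts against whole kidney. In unirradiated ducts the count was 5 of 9. Of all tested probe sets, 6.21% and 4.27% were called higher in these comparisons. The 9 include f11r.1, the current symbol of jam1a, and the ducts were picked by the fluorescence of the jam1a transgene. The genes gata3 (3.67 ± 0.26 and 2.96 ± 0.26, log2 difference ± SE) and atp1a1a.3 (3.55 ± 0.29 and 3.01 ± 0.29) were past the threshold in irradiated and unirradiated ducts. For slc12a3 the differences were -0.26 ± 0.48 and -0.14 ± 0.48. The 2 kidney arrays were less alike than the duct arrays, with a median absolute difference of 0.302 on the log2 scale, against 0.164 in irradiated and 0.188 in unirradiated ducts. Spiked poly(A) control RNAs averaged 6.29 and 6.40 in irradiated ducts, 5.0 and 5.97 in unirradiated ducts, and 3.70 and 5.43 in kidney replicates 1 and 2. The GAPDH control, which compares signal at the 3′ and 5′ ends of a transcript, had a log2 difference of 2.52 in unirradiated replicate 2, against 0.55 to 1.16 on the other arrays. Without that array, irradiated minus unirradiated ducts was -3.35 for apoa2 and -1.95 for apoc1 (-3.66 and -2.21 with it).

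**Figure D1:**
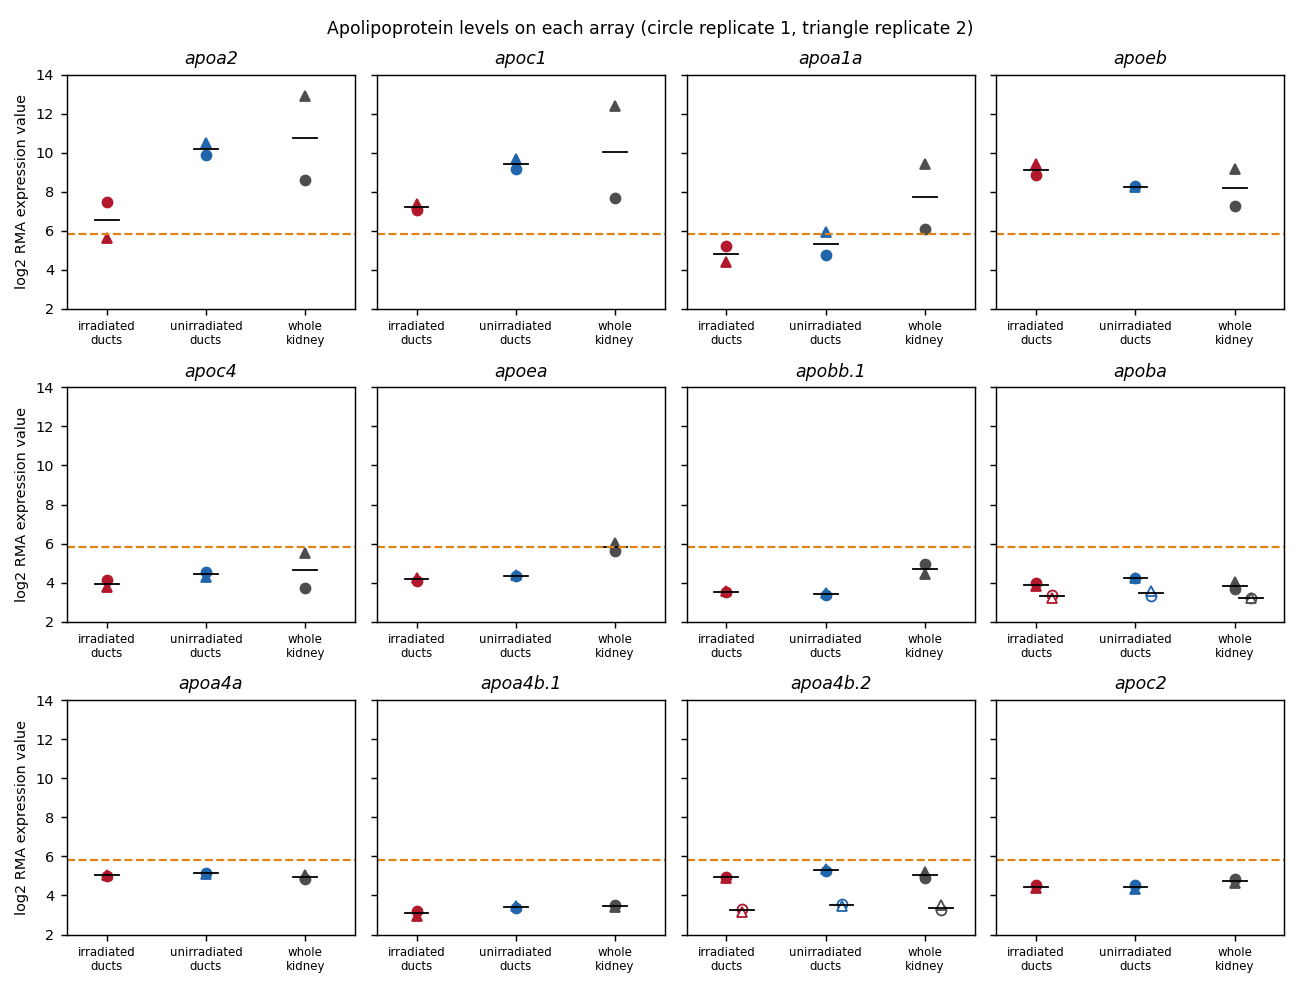
Log2 RMA expression values of the 12 apolipoprotein genes on each of the 6 arrays, with irradiated ducts in red, unirradiated ducts in blue and whole kidney in grey. Circles are replicate 1, triangles replicate 2, black bars group means, open symbols a gene's second probe set, and the dashed line the median of the array medians. Kidney replicate 2 is far above kidney replicate 1 for apoa2, apoc1 and apoa1a, and 7 genes lie under the dashed line on every array.

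The proteins of high-density lipoprotein come first. The gene apoa2 read 7.45 and 5.64 in irradiated ducts, 9.90 and 10.51 in unirradiated ducts, and 8.61 and 12.92 in whole kidney. Both irradiated arrays lay below both unirradiated arrays and below both kidney arrays, and irradiated replicate 2 lay under the array median. The mean was 12.6-fold lower in irradiated than in unirradiated ducts (log2 difference -3.66), a size that is uncertain because 1 irradiated array was under the array median. Against whole kidney the irradiated mean was 18.7-fold lower (-4.22), with -6.38 without kidney replicate 1 and -2.07 without kidney replicate 2. The difference between the ducts is the one that chose the set, and only 3 of the 15502 probe sets had a lower one.

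The spread of apoa2 inside groups was wide. Its 2 kidney arrays differed by 4.31 on the log2 scale, the 20th largest absolute difference among 15502 probe sets, and its 2 irradiated arrays differed by -1.81 (replicate 2 minus replicate 1), the 39th largest. The unirradiated arrays differed by 0.61 and lay between the 2 kidney arrays. Unirradiated ducts minus whole kidney gave -0.57 with both kidney arrays, -2.72 without kidney replicate 1 and 1.59 without kidney replicate 2, so the sign depends on which kidney array is used.

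The gene apoa1a, which encodes the main protein of high-density lipoprotein, read 5.24 and 4.42 in irradiated ducts, 4.74 and 5.95 in unirradiated ducts, and 6.07 and 9.42 in whole kidney. Both kidney arrays lay above all 4 duct arrays, and the irradiated and unirradiated arrays overlapped. Ducts minus whole kidney came to -2.92 ± 1.08 (SE) in irradiated ducts (adjusted p = 0.158, limma) and -2.40 ± 1.08 in unirradiated ducts (adjusted p = 0.223), so neither difference passed. With control centring both passed (-3.10, adjusted p = 0.0116, and -3.93, adjusted p = 0.000292). Centring also moved the median of all tested probe sets to -0.23 and -1.52. The hybridisation controls averaged 8.73 and 10.45 in kidney replicates 1 and 2, so centring also narrows the gap between these arrays. The same array offsets enter the spread of every probe set, so p under centring does not measure the spread of apoa1a alone. Without kidney replicate 1 the differences were -4.6 and -4.08, and without kidney replicate 2 they were -1.25 and -0.73. With 1 kidney array left, the spread within kidney is not measured, so no p is given.

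Among the small exchangeable apolipoproteins, the gene apoc1, whose product in mammals slows the uptake of lipoprotein remnants, read 7.07 and 7.39 in irradiated ducts, 9.18 and 9.69 in unirradiated ducts, and 7.70 and 12.39 in whole kidney. Irradiated arrays lay below those of both other groups, and the unirradiated arrays again fell between the 2 kidney arrays. The irradiated mean was 4.62-fold lower than the unirradiated mean (log2 difference -2.21), the 30th lowest of 15502 differences, and the arrays inside either duct group differed by at most 0.51. The 2 kidney arrays differed by 4.69, the 12th largest kidney difference on the array.

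Against whole kidney, apoc1 was at -2.82 ± 1.39 in irradiated ducts (adjusted p = 0.272) and -0.61 ± 1.39 in unirradiated ducts (adjusted p = 0.809). For unirradiated ducts the sign depended on the kidney array: the difference was -2.96 without kidney replicate 1 and 1.74 without kidney replicate 2. For irradiated ducts it was -5.16 without kidney replicate 1 and -0.47 without kidney replicate 2. With 1 kidney array left, the wide spread between the kidney arrays is not measured, so no p is given. The irradiated difference passed with control centring (-3.0, adjusted p = 0.0177, limma), where the median of all tested probe sets was -0.23. Array offsets enter the spread of every probe set there, so this p does not measure the spread of apoc1 alone.

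The neighbour apoc4, which encodes another small apolipoprotein, read 4.12 and 3.76 in irradiated ducts, 4.55 and 4.31 in unirradiated ducts, and 3.74 and 5.53 in whole kidney. All 6 values were under the array medians, with the highest again in kidney replicate 2. Ducts minus whole kidney was -0.70 ± 0.56 for irradiated ducts (adjusted p = 0.504) and -0.21 ± 0.56 for unirradiated ducts (adjusted p = 0.84). Without kidney replicate 1 these were -1.60 and -1.11, and without kidney replicate 2 they were 0.20 and 0.69, so the sign depended on the kidney array.

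The gene apoc2 encodes the cofactor that lipoprotein lipase needs. It read 4.52 and 4.36 in irradiated ducts, 4.53 and 4.32 in unirradiated ducts, and 4.85 and 4.66 in whole kidney, all under the medians. The 2 kidney arrays lay above all duct arrays by a small margin, which did not pass in irradiated ducts (-0.32 ± 0.17, adjusted p = 0.314) or unirradiated ducts (-0.33 ± 0.17, adjusted p = 0.279). Irradiated minus unirradiated ducts was 0.01.

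Zebrafish have 2 genes for ApoE, and their orders of level were unlike. The gene apoeb, known in zebrafish as a marker of microglia, the macrophages of the brain, read 8.85 and 9.41 in irradiated ducts, 8.28 and 8.24 in unirradiated ducts, and 7.24 and 9.15 in whole kidney. Here the irradiated arrays were above both unirradiated arrays (log2 difference 0.87, or 1.83-fold higher). The kidney arrays lay on either side of the unirradiated arrays and of irradiated replicate 1. Irradiated replicate 2 lay above both kidney arrays. Against whole kidney the differences were 0.93 ± 0.60 in irradiated ducts (adjusted p = 0.4) and 0.06 ± 0.60 in unirradiated ducts (adjusted p = 0.961). Without kidney replicate 2 they were 1.88 and 1.01, and without kidney replicate 1 they were -0.02 and -0.89, so the sign depended on the kidney array.

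The other ApoE gene, apoea, was lower in ducts than in whole kidney. It read 4.07 and 4.26 in irradiated ducts, 4.33 and 4.37 in unirradiated ducts, and 5.64 and 6.01 in whole kidney, so both kidney arrays stood clear of the 4 duct arrays. The level was 3.15-fold lower in irradiated ducts (-1.66 ± 0.19, adjusted p = 0.00746) and 2.77-fold lower in unirradiated ducts (-1.47 ± 0.19, adjusted p = 0.0151). The size is uncertain because all duct levels and kidney replicate 1 lay under the array medians. Kidney replicate 2 lay little above its median, at 6.01 against 5.83. The adjusted p in unirradiated ducts was 0.108 without either unirradiated array, and in irradiated ducts it was 0.0624 and 0.0533 without irradiated replicates 1 and 2 and 0.457 with arrays centred on the hybridisation controls, at the same sign.

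Of the ApoB genes, apobb.1 had the same order as apoea. It read 3.51 and 3.55 in irradiated ducts, 3.38 and 3.45 in unirradiated ducts, and 4.94 and 4.42 in whole kidney. Ducts were lower, by 2.22-fold in irradiated ducts (-1.15 ± 0.21, adjusted p = 0.0265) and 2.40-fold in unirradiated ducts (-1.26 ± 0.21, adjusted p = 0.0285), although all 6 values were under the array medians and both sizes are therefore uncertain. The call was lost without any 1 of the 4 duct arrays, with adjusted p between 0.0746 and 0.15 for irradiated ducts and between 0.0754 and 0.154 for unirradiated ducts, in the fits on the compared groups alone (0.0746 and 0.0754), and for irradiated ducts with control centring (-1.33, adjusted p = 1). Kidney replicate 1 was the higher one for apobb.1, unlike apoa2, apoc1, apoa1a, apoeb, apoc4 and apoea.

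The second ApoB gene, apoba, had 2 probe sets. The brighter one read 3.97 and 3.82 in irradiated ducts, 4.26 and 4.24 in unirradiated ducts, and 3.65 and 4.02 in whole kidney, and the other ranged from 3.2 to 3.57. Both gave positive differences against whole kidney in both kinds of ducts, none past the threshold. The brighter one came nearest in unirradiated ducts (0.41 ± 0.19, adjusted p = 0.222), and with control centring the sign turned for both probe sets in both comparisons.

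The ApoA-IV genes, which in mammals are expressed mainly in the intestine, were under the array medians throughout. The gene apoa4a read 5.0 and 5.06 in irradiated ducts, 5.16 and 5.11 in unirradiated ducts, and 4.83 and 5.04 in whole kidney. The gene apoa4b.1 ranged from 2.94 to 3.53 over the 6 arrays. The brighter probe set of apoa4b.2 read 4.96 and 4.90 in irradiated ducts, 5.24 and 5.36 in unirradiated ducts, and 4.92 and 5.22 in whole kidney, and its other probe set ranged from 3.18 to 3.56. None of these 4 probe sets passed against whole kidney, with adjusted p between 0.243 and 0.761 in irradiated ducts and between 0.432 and 0.897 in unirradiated ducts. Shared hybridisation among these related genes was not tested.

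**Figure D2:**
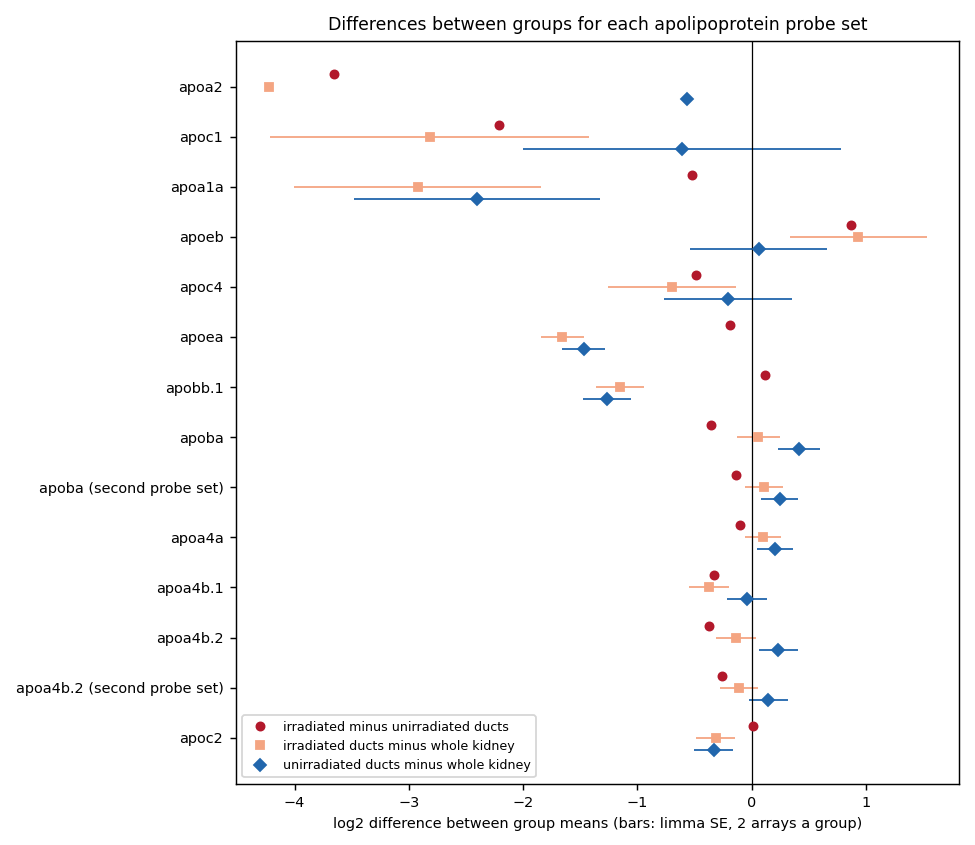
Log2 differences between group means for the 14 apolipoprotein probe sets, with irradiated minus unirradiated ducts as red circles, irradiated ducts minus whole kidney as light orange squares and unirradiated ducts minus whole kidney as blue diamonds. Bars are limma standard errors and are left out where the values chose the set. The genes apoea and apobb.1 lie left of 0 in both comparisons with whole kidney with narrow bars, while apoc1 and apoa1a have bars over 1 unit on each side.

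Counted over the 13 probe sets other than apoa2, 2 were lower in irradiated ducts than in whole kidney, 0 were higher and 11 did not pass, against 10.5% of all probe sets past the threshold (4.24% lower and 6.21% higher). For unirradiated ducts the count was also 2 lower, 0 higher and 11 not past, against 7.26% of all probe sets (2.99% lower and 4.27% higher). In both comparisons the 2 were apoea and apobb.1, and the comparisons share the kidney arrays. The median log2 difference of the 13 was -0.32 in irradiated ducts, where that of all tested probe sets was -0.05, and -0.04 in unirradiated ducts, where it was 0.01. The 2 calls are 15.4% of the 13, beside 10.5% and 7.26% of all probe sets in either direction. Nothing is read from so small a count, and no test of the members as a list was made.

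Between irradiated and unirradiated ducts, 9 of the 14 probe sets had both irradiated arrays below both unirradiated arrays and 2 had them above, against 33% and 23.8% of all tested probe sets. The median of the 14 was -0.30, and that of all tested probe sets was -0.05. Over the whole array 0.168% of the probe sets passed in this comparison (0.0903% lower and 0.0774% higher), and the apolipoproteins are not tested in it. Because the set was picked here, nothing is read from these counts. Against whole kidney, arrays did not overlap for 7 lower and 1 higher of the 14 in irradiated ducts (31.9% and 23.4% of all probe sets) and for 4 lower and 4 higher in unirradiated ducts (27.7% and 28.9%).

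The genes whose level varied by at least 1 over the arrays were apoa2, apoc1, apoa1a, apoeb, apoea, apoc4 and apobb.1. Across the 6 arrays Pearson's r was 0.93 between apoa2 and apoc1, 0.93 between apoc1 and apoc4, 0.87 between apoa2 and apoc4, and 0.82 and 0.84 between apoa1a and apoa2 and apoc1. These 4 genes share the high value of kidney replicate 2, and r over 6 arrays in 3 groups describes these arrays only. The gene apoeb, which lies beside apoc1 in the gene order, had r of -0.12 with apoa2 and 0.19 with apoc1. The genes apoea and apobb.1 had r of 0.90 with each other, and both are highest in whole kidney.

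Among 3043 named genes with a range of at least 1, those most like apoa2 over the 6 arrays were paics, an enzyme gene of purine synthesis (r = 0.994), rsl1d1 (0.984), ppdpfa (0.982), the phospholipid acyltransferase gene lpcat2 (0.979), slc2a9l1 (0.978) and dap1b (0.977). The changes of paics were smaller, with 7.99 and 7.51 in irradiated ducts, 8.41 and 8.55 in unirradiated ducts, and 8.08 and 9.18 in whole kidney. For apoc1 the nearest were aanat2, hsd17b12b (both 0.988) and cbsb (0.983), for apoa1a crygs2 (0.988), akt2l (0.987) and the nuclear receptor gene hnf4g (0.985), and for apoc4 casp2 (0.989), ralgps2 (0.984) and spock3 (0.981). The genes nearest to apoea were rfc1 (0.995), the chemokine gene cxcl12a (0.994) and aldh9a1b (0.993). For apobb.1 they were papss2b, rpap1 and the haem synthesis gene urod (all 0.998), and for apoeb hoxa13b (0.956), ybx1 (0.942) and hgs (0.937). These were the highest among 3043 genes over the same 6 arrays, which share their groups and the kidney arrays, and they describe these arrays only.

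Markers of the cells that make or take up apolipoproteins were read on the same arrays. Differences in bulk tissue can come from fewer cells of a type or from less RNA per cell, and these cannot be told apart. Of 20 measured hepatocyte genes (28 listed), 6 and 6 were above the array median in irradiated ducts, 2 and 3 in unirradiated ducts, and 7 and 8 in kidney replicates 1 and 2. The liver fatty acid binding protein gene fabp10a read 6.60 and 6.68 in irradiated ducts, 5.82 and 6.80 in unirradiated ducts, and 7.31 and 7.85 in whole kidney, and tfa, the transferrin gene, read 6.31 and 5.85, 5.37 and 5.0, and 7.04 and 6.12 in the same order. The fibrinogen genes fga and fgb were low, at most 3.41 and 5.96. From kidney replicate 1 to replicate 2 the hepatocyte genes differed by a median of 0.12, from -0.92 (tfa) to 1.05 (fgb). The differences of apoa2 and apoc1 were 4.31 and 4.69. Only 7 and 8 of the 20 hepatocyte genes were above the median on these arrays, and the part of liver cells in these values was not tested. Their summed linear level was 6550 and 6580 in irradiated ducts, 4290 and 3610 in unirradiated ducts, and 2370 and 2080 in whole kidney, an order carried by the retinol binding protein gene rbp4, singled out after its values were seen, which read 12.50 and 12.52, 11.88 and 11.54, and 9.95 and 9.67. Against whole kidney, 1 of the 20 was called higher and 2 lower in unirradiated ducts (4.27% and 2.99% of all tested probe sets). In irradiated ducts 1 was higher and 1 lower (6.21% and 4.24%).

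The 5 measured proximal tubule genes (15 listed) were all higher in kidney replicate 2 than in replicate 1, by 0.50 to 1.11. Their summed linear level was 2290 and 4040 in irradiated ducts, 1620 and 3340 in unirradiated ducts, and 5550 and 9690 in whole kidney. The phosphate transporter gene slc20a1a read 9.94 and 10.54 in irradiated ducts, 8.81 and 9.75 in unirradiated ducts, and 10.66 and 11.39 in whole kidney. The high values of apoa2, apoc1 and apoa1a in kidney replicate 2 stood beside higher proximal tubule genes. In unirradiated replicate 2 the sum was also higher than in replicate 1, and the 3 genes were higher by 0.61, 0.51 and 1.21. In irradiated replicate 2 the sum was higher too, but apoa2 and apoa1a were lower (-1.81 and -0.82) and apoc1 was 0.31 higher. The part of these cells in these values was not tested.

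The 12 measured macrophage and leukocyte genes (20 listed) summed to 16500 and 20200 in irradiated ducts, 24200 and 22800 in unirradiated ducts, and 23600 and 27800 in whole kidney. In irradiated against unirradiated ducts 2 were lower past the threshold and 0 higher, beside 0.0903% lower and 0.0774% higher of all tested probe sets. The 2 lower genes were lyz (-2.97 ± 0.16, adjusted p = 0.0149, limma) and ptprc (-1.86 ± 0.18, adjusted p = 0.039). Both are outside the rule for named genes and were chosen after their values were seen. The scavenger receptor gene marco, by contrast, read 8.78 and 10.26 in irradiated ducts, 9.22 and 9.48 in unirradiated ducts, and 9.61 and 10.59 in whole kidney. The antigen presentation genes cd74a and cd74b lay between 11.43 and 13.15 on all arrays, and csf1ra, a receptor gene of macrophages, was under the medians at 4.08 to 5.08. For marco and cd74b the arrays of both duct groups overlapped. For cd74a and csf1ra both irradiated arrays lay below both unirradiated arrays, an order found for 33% of all tested probe sets. The lower lyz and ptprc stood beside the lower apoa2 and apoc1 and the higher apoeb in irradiated ducts, and the part of these cells in them was not tested. The 7 red cell genes (9 listed) had summed levels of 17900 and 13800 in irradiated ducts, 13200 and 19300 in unirradiated ducts, and 41600 and 33200 in whole kidney, where all 7 were lower in replicate 2 than in replicate 1.

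**Figure D3:**
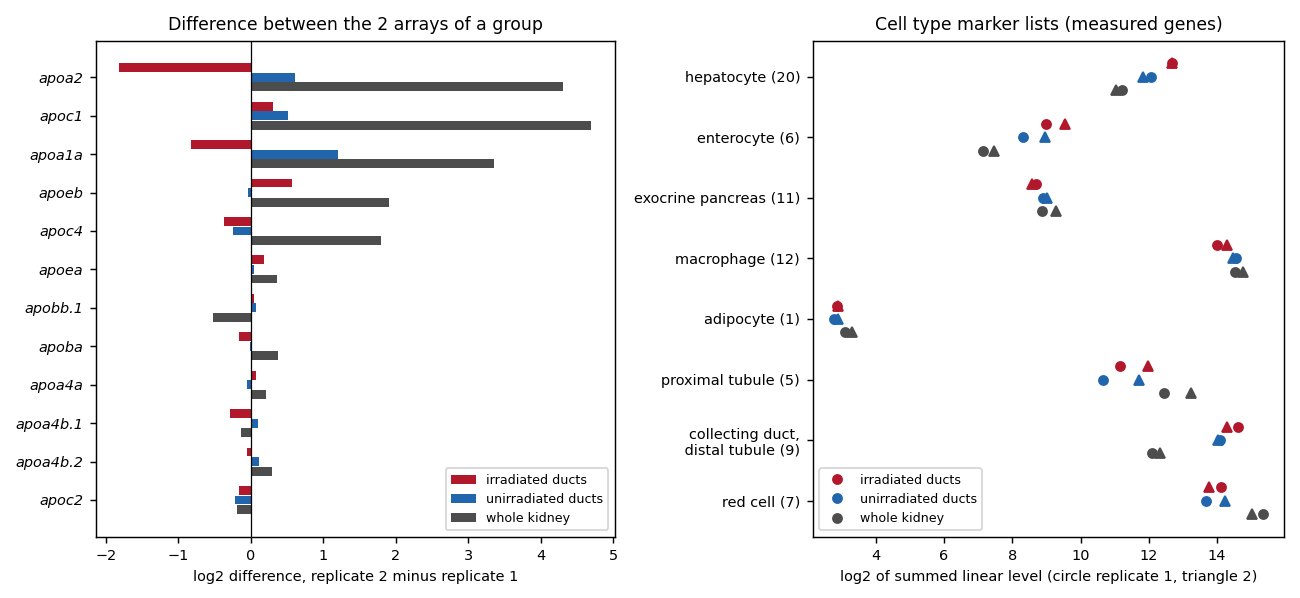
The left panel plots, for the brightest probe set of each apolipoprotein gene, the log2 level of replicate 2 minus that of replicate 1 in irradiated ducts, unirradiated ducts and whole kidney. The right panel plots the log2 of the summed linear level of each marker list on each array, with circles for replicate 1 and triangles for replicate 2 and the number of measured genes in brackets. The kidney bars of apoc1 and apoa2 reach 4.69 and 4.31. On the right, the 2 kidney arrays lie at 11.21 and 11.03 for the hepatocyte sums and at 12.44 and 13.24 for the proximal tubule sums.

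Genes that build, carry, take up or regulate lipoproteins were read from 7 lists by role. Of 124 listed genes 56 were measured, and 21 of these were under the array medians on all arrays. In irradiated ducts against whole kidney 3 were higher, 3 lower and 50 did not pass (10.7%, against 11.6% of 8781 named genes that are not members, 6.41% higher and 5.15% lower). In unirradiated ducts against whole kidney 3 were higher, 4 lower and 49 did not pass (12.5%, against 7.41% of those genes, 4.11% higher and 3.3% lower). The medians of the 56 genes were -0.17 and -0.09, with -0.05 and 0.01 over all tested probe sets.

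Among further apolipoproteins, clu was far higher in ducts. It encodes clusterin, also called apolipoprotein J, a secreted chaperone found on high-density lipoprotein. Its level was 9.71 and 10.70 in irradiated ducts, 9.90 and 9.89 in unirradiated ducts, and 6.89 and 6.26 in whole kidney, so the duct and kidney arrays did not overlap. The log2 difference from whole kidney was 3.63 ± 0.37 in irradiated ducts (12.4-fold, adjusted p = 0.00586) and 3.32 ± 0.37 in unirradiated ducts (adjusted p = 0.0117). The other 7 measured genes of this list, among them apom, apoda.2 and apodb, did not pass in either comparison on the probe set of highest mean. All 7 have symbols that begin with apo, and a role in lipoproteins was not tested. A second probe set of apooa, named after its values were seen, was higher in irradiated ducts than in whole kidney (0.94 ± 0.18, adjusted p = 0.0293, limma). In the same comparison the brighter one did not pass (0.81 ± 0.26, adjusted p = 0.119). The unirradiated call of clu was lost with control centring (1.79, adjusted p = 0.085, limma). The clu call was lost too without unirradiated replicate 1 or 2, where 1 array is left in that group.

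Of 9 measured receptor and uptake genes, the endocytic receptor gene lrp1aa, whose product binds ApoE-bearing particles in mammals, was higher in both kinds of ducts than in whole kidney. It read 10.80 and 11.08 in irradiated ducts, 10.34 and 10.46 in unirradiated ducts, and 7.81 and 8.11 in whole kidney. The difference from whole kidney was 2.98 ± 0.19 in irradiated ducts (7.88-fold, adjusted p = 0.00231) and 2.44 ± 0.19 in unirradiated ducts (5.44-fold, adjusted p = 0.00584). The unirradiated call was lost with control centring (0.92, adjusted p = 0.286) and without either unirradiated array (adjusted p = 0.0775 and 0.0673).

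Of the other uptake genes, 1 was lower in each comparison. The very low-density lipoprotein receptor gene vldlr read 9.30 and 9.26 in irradiated ducts, 9.45 and 10.10 in unirradiated ducts, and 10.73 and 11.06 in whole kidney. Against whole kidney it was lower in irradiated ducts (-1.62 ± 0.26, adjusted p = 0.0178, limma) and at -1.12 ± 0.26 in unirradiated ducts (adjusted p = 0.0576). Its other 2 probe sets did not pass in irradiated ducts (-1.54 and -0.05), and the mean of all 3 gave -1.07 (adjusted p = 0.0599), so the call rests on 1 probe set. It was lost too without irradiated replicate 1 or 2 (adjusted p = 0.106 and 0.11) and with control centring (-1.80, adjusted p = 0.486). The endocytic adaptor gene dab2, also on the proximal tubule list, was lower in unirradiated ducts than in whole kidney (-2.33 ± 0.48, adjusted p = 0.0466). In irradiated ducts the difference from whole kidney was -1.96 ± 0.48 (adjusted p = 0.0594). Neither gene was past the threshold between irradiated and unirradiated ducts (adjusted p = 0.437 for vldlr and 0.769 for dab2).

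Among 6 genes of lipases and related factors, lipea, the gene of hormone-sensitive lipase, was higher in ducts than in whole kidney. The log2 difference was 1.31 ± 0.22 in irradiated ducts (adjusted p = 0.0222, limma) and 1.27 ± 0.22 in unirradiated ducts (adjusted p = 0.0326). For unirradiated ducts control centring turned the sign (-0.26, adjusted p = 0.761). Irradiated minus unirradiated ducts was 0.04 for lipea and -0.10 for dgat1a. Of 7 assembly genes, dgat1a, which encodes an enzyme of the last step of triglyceride synthesis, was lower in ducts than in whole kidney. On the log2 scale it was lower by 0.84 ± 0.15 in irradiated ducts and by 0.74 ± 0.15 in unirradiated ducts (adjusted p = 0.0264 and 0.0469, limma). All its values were under the array medians. The gene mttp, needed to load lipid onto ApoB, was at 4.05 to 4.34 on all arrays.

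Regulators were measured for 17 genes. The bile acid receptor family gene nr1h5 read 6.21 and 6.45 in irradiated ducts, 6.76 and 6.89 in unirradiated ducts, and 7.73 and 7.68 in whole kidney. It fell in both kinds of ducts (-1.38 ± 0.17, adjusted p = 0.00857, and -0.88 ± 0.17, adjusted p = 0.0375). The gene hnf4a, a nuclear receptor that in mammals activates many apolipoprotein genes in liver, read 5.18 and 5.37 in irradiated ducts, 4.89 and 5.08 in unirradiated ducts, and 5.88 and 6.24 in whole kidney. Against whole kidney it was lower in unirradiated ducts (-1.07 ± 0.19, adjusted p = 0.0344, limma) and at -0.78 ± 0.19 in irradiated ducts (adjusted p = 0.06). Its other probe set was past the threshold in irradiated and unirradiated ducts (-1.50 and -1.60, adjusted p = 0.0141 and 0.0185). The sizes are uncertain, since all duct levels of the first probe set lay under the array medians. The second averaged only 3.43 in unirradiated ducts and 5.02 in whole kidney, also under the medians. None of 8 sterol synthesis genes passed, and scarb1, the only measured gene of the list on maturation of high-density lipoprotein, did not pass either (-0.17 and -0.25). The calls of lipea, hnf4a, nr1h5, dab2 and dgat1a in unirradiated ducts were all lost without unirradiated replicate 1 or 2, with adjusted p between 0.1 and 0.208, without irradiated replicate 1 or 2 (0.0708 to 0.114) and under arrayWeights (0.0528 to 0.105). For dab2 in unirradiated ducts, leaving out 1 array gave differences of -2.90 to -1.75. With 1 kidney array left, the spread within kidney is not measured, so no p is given for those fits. In irradiated ducts the calls of lipea, nr1h5 and dgat1a were lost without irradiated replicate 1 or 2 (0.0527 to 0.157), and those of lipea and dgat1a also without either unirradiated array (0.0624 and 0.0736). Control centring ended all 3 of these irradiated calls at the same sign (adjusted p = 0.729 for nr1h5 and 1 for lipea and dgat1a).

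Between irradiated and unirradiated ducts, 0 of the 56 genes passed by limma, 4 had an unadjusted p under 0.05, and 0.137% of the 8781 other named genes passed (0.0683% higher and 0.0683% lower). The smallest adjusted p was 0.269, for fdps, an enzyme gene of the sterol pathway, at 4.81 and 4.66 in irradiated ducts and 6.07 and 5.58 in unirradiated ducts (-1.08 ± 0.32). It was followed by nr1h5 (-0.50 ± 0.17, adjusted p = 0.298), lrp1aa (0.53 ± 0.19, adjusted p = 0.315) and apoob (-0.43 ± 0.17, adjusted p = 0.348). With control centring fdps, nr1h5 and apoob changed sign.

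**Figure D4:**
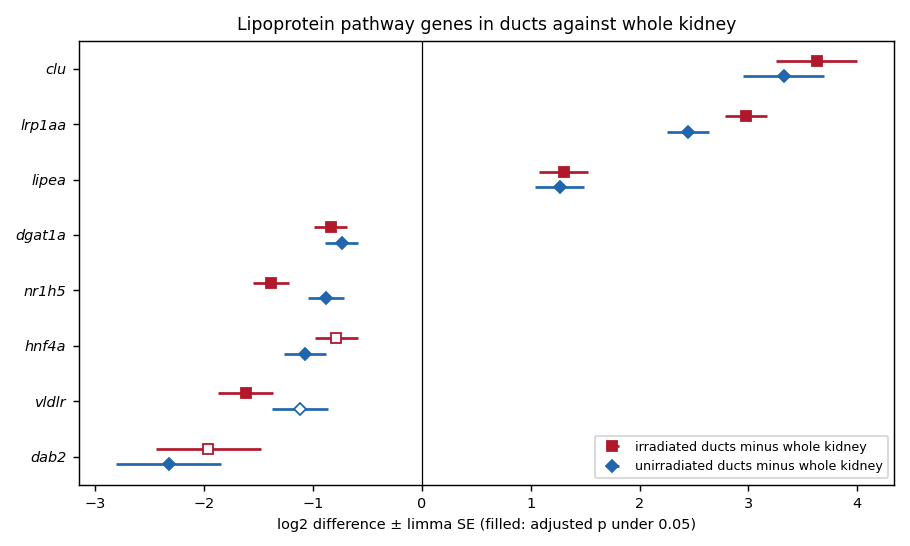
Log2 differences ± limma standard error for the 8 lipoprotein pathway genes past the threshold in either comparison with whole kidney, with irradiated ducts as red squares and unirradiated ducts as blue diamonds, 2 arrays a group. Filled symbols had an adjusted p under 0.05. The genes clu, lrp1aa and lipea lie to the right of 0 in both comparisons, and vldlr, hnf4a and dab2 are filled in 1 comparison each.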

How the data were processed

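The authors deposited RMA values on the log2 scale, made with affy per the submitters' processing notes, which give no versions. They were not transformed further. Of 15617 probe sets, 115 controls were left out and 15502 tested. Probe sets were named through the platform annotation (10795 probe sets with 1 gene, 135 with several, 4572 with none), updated through a RefSeq gene table used for names and gene order only.

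Groups came from sample titles and the series design. Limma (version 3.58.1, R version 4.3.3) fitted 1 mean per group over 6 arrays, with 3 residual degrees of freedom, two-sided p and Benjamini-Hochberg adjustment. SE is limma's moderated standard error. An exact permutation test of 2 against 2 arrays cannot go below p = 0.333 and was not used. The fit was also run on simulated data with the same spread in all 3 groups. In the real arrays kidney was wider (root mean square SD 0.465, against 0.250 in irradiated and 0.246 in unirradiated ducts). The simulation therefore does not check the fit at unequal spread. The number of arrays limits precision, and the p-values measure the spread between these pools. With control centring they also carry the offsets of the arrays, which are the same for every probe set. A gene other than a member was represented by its probe set of highest mean.

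The members and lists were chosen with earlier results of these data known. Named were all members, lipid pathway genes past the threshold (at least 4 per comparison, filled by p), up to 4 markers per list in written order, and, per varying member, the 3 genes (6 for apoa2) with the highest Pearson r. Alternatives were a replicate block, fits on only the arrays compared, array weights, eBayes with its robust and trend options, a mean log2 of at least 6, centring on 18 hybridisation control probe sets, the mean of a gene's probe sets, and leaving out each array. Same-numbered arrays of 2 groups had correlated deviations of 0.063, -0.097 and -0.098, so the numbers were not taken to pair the samples.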

Additional observations from a re-analysis of the deposited data

How the results depend on the processing

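Of the 2 apolipoprotein probe sets past the threshold against whole kidney, 1 (apoea) remained past the threshold in either kind of ducts in fits on the compared groups alone. A minimum mean log2 of 6 removed both and left 0 calls. Fits that leave out 1 array have 1 array left in that group, so its spread is not measured. Counts of calls in those fits are given as a range only, and nothing is read from them. Leaving out 1 array gave 0 to 5 calls in irradiated ducts and 0 to 5 in unirradiated ducts. Lipid pathway calls in unirradiated ducts numbered 3 on the compared groups alone, 2 with arrayWeights, 15 with control centring and 0 to 15 with 1 array left out, and in irradiated ducts 2 with control centring and 2 to 14 with 1 array left out. With the replicate number as a block there were 2 apolipoprotein calls in each comparison, and 9 and 6 lipid pathway calls in irradiated and unirradiated ducts; the calls of dgat1a in both, and of lipea and nr1h5 in unirradiated ducts, were lost. Between irradiated and unirradiated ducts 0 lipid pathway genes passed under all 13 alternatives.

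Control centring adds 1.35 to irradiated minus unirradiated ducts, -0.18 to irradiated ducts minus kidney and -1.53 to unirradiated ducts minus kidney, and all directions are relative to the deposited scale. The offsets also enter the spread of every probe set, so calls gained or lost with control centring do not measure a gene's own spread. In irradiated minus unirradiated ducts it gave -2.31 for apoa2 and -0.86 for apoc1, and leaving out 1 array gave -4.56 to -2.75 and -2.46 to -1.95, both chosen for these genes after seeing the data. Signs turned by construction in unirradiated ducts minus kidney for apoa4a (-1.33), apoa4b.2 (-1.30 and -1.38), apoba (-1.11 and -1.28), apoeb (-1.47) and lipea (-0.26), in irradiated ducts minus kidney for apoa4a (-0.08) and apoba (-0.12 and -0.08), and in irradiated minus unirradiated ducts for fdps (0.26), nr1h5 (0.85) and apoob (0.92).

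Leaving out 1 array turned the sign in irradiated ducts minus kidney for apoa4a (-0.01 to 0.20), apoa4b.2 (-0.29 to 0.01 and -0.24 to 0.01), apoba (-0.13 to 0.24), apoc4 (-1.60 to 0.20) and apoeb (-0.02 to 1.88). In unirradiated ducts minus kidney it did so for apoa2 (-2.72 to 1.59), apoa4b.1 (-0.11 to 0.02), apoc1 (-2.96 to 1.74), apoc4 (-1.11 to 0.69) and apoeb (-0.89 to 1.01). The cause was not tested. The signal of 7 genes under the array medians limits what can be said of them.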

Other observations

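Genes of enterocytes, the intestinal cells that secrete apolipoproteins, were measured for 6 of 8 listed. The intestinal fatty acid binding protein gene fabp2 read 7.72 and 8.67 in irradiated ducts, 7.52 and 8.34 in unirradiated ducts, and only 4.22 and 4.02 in whole kidney. Its level was higher in irradiated ducts (4.07 ± 0.40, adjusted p = 0.00509, limma) and in unirradiated ducts (3.81 ± 0.40, adjusted p = 0.0102). The microvillus gene vil1 read 7.84 and 8.13 in irradiated ducts, 5.91 and 6.59 in unirradiated ducts, and 6.10 and 6.48 in whole kidney, and was higher than whole kidney in irradiated ducts (1.70 ± 0.28, adjusted p = 0.0204). Its irradiated minus unirradiated difference did not pass (1.73 ± 0.28, adjusted p = 0.131). The genes slc15a1b and fabp1b.1 were under the array medians on all arrays. Exocrine pancreas genes were past the threshold for 0 of 11 in all 3 comparisons, and the single measured adipocyte gene, cidec, was at 2.78 to 3.30.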
